A study of Mus musculus with 583 samples.

Results

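The 43 genes described here build the DNA replication machinery or belong to the G1/S programme that supplies it. They were chosen by function, as a named list, from the 38924 mouse genes of the count table. Earlier results of these data were known when the choice was made. Ensembl identifiers were matched to symbols with the GENCODE M21 annotation. The list holds the 6 subunits of the MCM2-7 helicase, the 4 GINS subunits and Cdc45, 6 licensing and initiation genes, the sliding clamp Pcna with 6 clamp loader genes, 5 polymerase and primase genes, 3 subunits of replication protein A, 2 genes of Okazaki fragment processing, 4 nucleotide supply genes, 3 genes of chromatin assembly and histone mRNA, the transcription factor gene E2f1 and the mismatch repair gene Msh6.

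The study measured RNA in single cells of J1, a mouse embryonic stem cell line, with 6 methods. All cells of all groups were J1 cells kept in 2i/LIF, a medium with the cytokine LIF and blockers of the kinases MEK and GSK3 that keeps ground-state pluripotency, so no group differed in genotype or treatment. Smart-seq / C1, on the Fluidigm C1 microfluidic platform, and Smart-seq2 yield fragments from the whole transcript, and their counts are of reads. CEL-seq2 (also run on the C1), MARS-seq, SCRB-seq (from cells sorted by flow cytometry) and Drop-seq (cells caught in droplets with barcoded beads) read only the 3′ end of a transcript, and their counts are of unique molecular identifiers (UMIs), short random tags that mark single molecules. Each method had a replicate library A and a replicate library B, 12 libraries and 583 cells in all. The labels do not say that replicates came from separate cultures, so a p-value here reflects no more than how far these libraries differ, and that spread may be technical.

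Origins of replication are licensed in G1, when the origin recognition complex, Cdc6 and Cdt1 load MCM2-7 rings onto DNA, and geminin (Gmnn) later blocks reloading. At the start of S phase Cdc45 and GINS join MCM2-7 to form the active helicase, primase and the replicative polymerases copy both strands, and Pcna, loaded by replication factor C, holds the polymerases on the template. E2F transcription factors drive most of these genes at the G1/S boundary, and mouse embryonic stem cells are known for a short G1 phase and for spending much of the cycle in S phase.

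Promoter sequences are shown first because E2F-type words, which the choice of genes did not use, stood in some of the members' promoters. RefSeq promoters of build GRCm38.p6, from 250 bases before to 50 bases after each start, were matched by symbol to 34 of the 43 genes. Each was searched on both strands for the E2F-type words TTTCCCGC, TTTCGCGC, TTTGCCGC and TTTGGCGC, which may overlap, and 12 of the 34 genes (35.3%) held at least 1. Of 27025 genes in the RefSeq table, 704 (2.6%) held such a word in windows of the same length. The words stood in 23 of 57 other replication genes (40.4%) and in 3 of 47 genes of G2 and mitosis (6.38%). The CCAAT word, on either strand, stood in 22 of the 34 genes (64.7%) and in 41.1% of all genes. The 2 helicase genes below held words upstream of the start and outside every annotated exon, and their words overlap as inverted pairs. They are the 170 bases that end just before the start, written 5′ to 3′ on the gene's strand, with the matched letters in capitals. The Mcm5 window is chr8:75109339-75109508 on the plus strand and the Mcm6 window is chr1:128359706-128359875 on the minus strand.
Mcm5: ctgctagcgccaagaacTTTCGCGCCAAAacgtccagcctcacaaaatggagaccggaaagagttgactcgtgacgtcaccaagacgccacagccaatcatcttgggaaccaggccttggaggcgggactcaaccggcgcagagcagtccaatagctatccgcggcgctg
Mcm6: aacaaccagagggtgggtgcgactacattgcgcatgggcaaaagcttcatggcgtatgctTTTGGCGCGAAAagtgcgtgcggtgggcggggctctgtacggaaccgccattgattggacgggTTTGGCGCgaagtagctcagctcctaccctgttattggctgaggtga

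In Mcm5 the overlapping words began 153 and 149 bases before the start. In Mcm6 an overlapping pair began 110 and 106 bases before the start and a single word 47 bases before it. Stretches of 28 bases around a word in 4 other genes show words of the same set in either orientation, with the word at the centre in capitals. The Rfc3 stretch ends in a further word, left in lower case. The Orc1 stretch is chr4:108579417-108579444 (plus strand, 22 of its bases in an annotated Orc1 exon), the Cdc6 stretch chr11:98908003-98908030 (plus strand, in no annotated exon), the Gins3 stretch chr8:95633508-95633535 (plus strand, in a Gins3 exon) and the Rfc3 stretch chr5:151651201-151651228 (minus strand, in an Rfc3 exon).
Orc1: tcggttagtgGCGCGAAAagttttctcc
Cdc6: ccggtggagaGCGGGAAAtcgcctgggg
Gins3: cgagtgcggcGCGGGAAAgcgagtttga
Rfc3: cgtcgcacgcTTTCGCGCtcgcgggaaa

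The remaining 6 genes with a word were Mcm3, Mcm7, Cdt1, Lig1, Pold1 and Msh6. A match of letters is a description of the window and no measurement of binding, and no promoter was read for Dscc1, Gins1, Gins2, Gins4, Gmnn, Mcm4, Pole, Prim2 and Rfc2.

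Libraries held between 29 and 80 cells, and counts summed over the cells of a library ran from 583302 (Drop-seq B) to 34984056 (Smart-seq2 A). Counting error therefore weighs more on the tag libraries, in which the 43 genes together took between 3214 and 21607 counts, against 193669 to 427633 in the full-length libraries. The 10 pluripotency markers summed to between 3414 and 7507 CPM (counts scaled to a common library total) in each library, and the 10 fibroblast markers to between 5.28 and 57.4 CPM, with Postn and Twist2 at 0 in every library. The 6 primitive endoderm, 6 neural and 6 mesendoderm markers summed to at most 33.2, 151 and 89.1 CPM, with Olig2 and Lhx1 at 0 throughout. Cell names recurred in 15 pairs of libraries, between 1 and 66 a pair: in the full-length libraries they are well positions, and in CEL-seq2, MARS-seq and SCRB-seq barcodes, shared mostly between replicates of a method. In Drop-seq, 29 of 42 barcodes in A and 12 of 34 in B lay within 1 base of another barcode of their library.

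All 43 genes had counts in each of the 12 libraries. Together they took 1.05% to 1.22% of the counts in the 4 full-length libraries and 0.482% to 0.776% in the 8 tag libraries. In the heat map of levels, most genes were brighter in the 4 full-length libraries than in the 8 tag libraries, while Fen1, Gins1 and Pcna went the other way. With counts summed over the cells of a library and tested in edgeR's quasi-likelihood model, 39 of 43 genes (90.7%) differed among the 6 methods at an adjusted p below 0.05, against 65.4% of all 14293 genes tested. Those that did not pass were Gins3, Dscc1, Lig1 and E2f1, with adjusted p = 0.175, 0.292, 0.32 and 0.0545 in the quasi-likelihood test. A summed count cannot tell fewer cells in S phase from less RNA of a gene per cell.

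**Figure D1:**
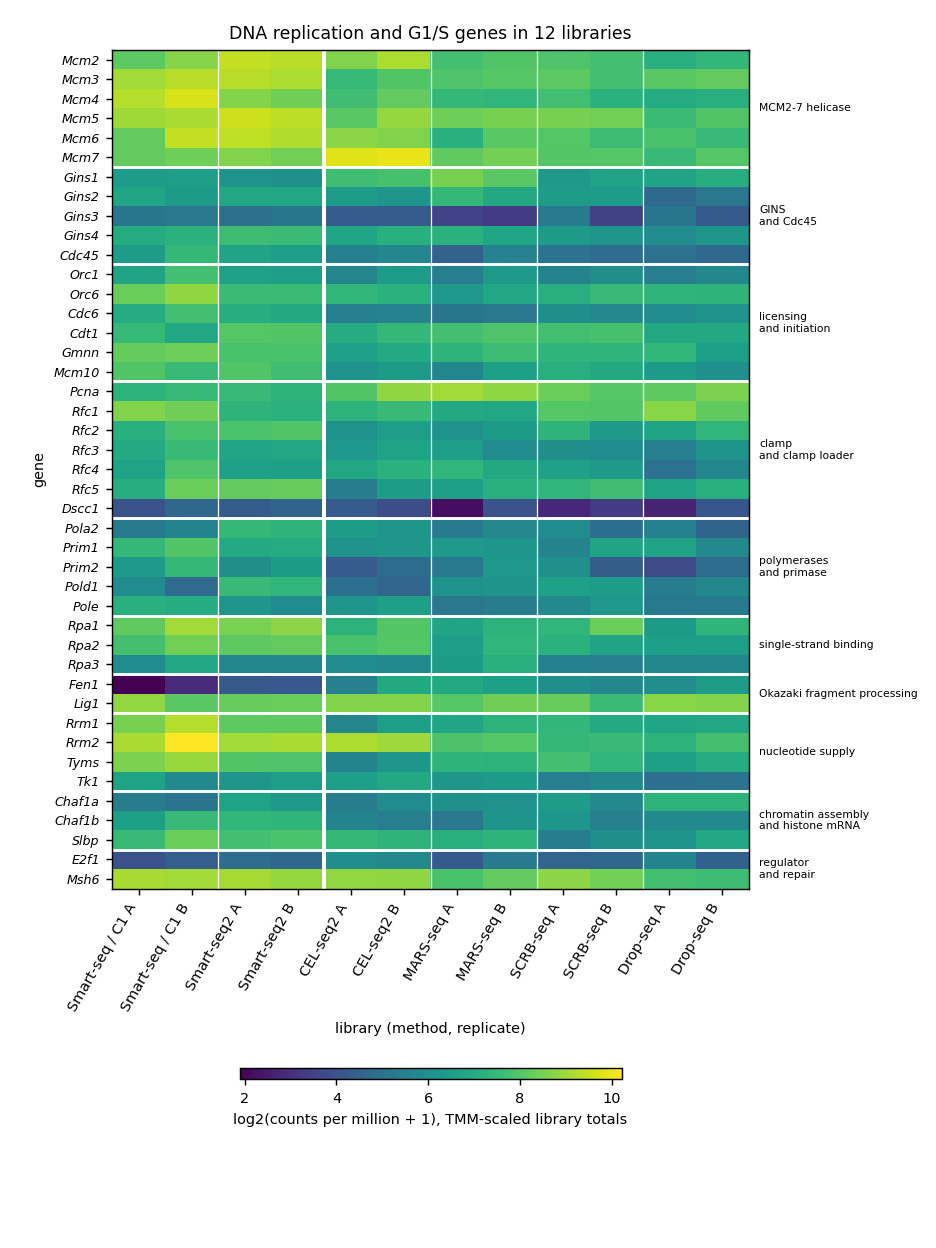
Levels of the 43 genes (rows, grouped by role) in 12 libraries (columns), as log2(CPM + 1) with TMM-scaled library totals; the thick white line parts the 4 full-length libraries from the 8 tag libraries. Fen1 is darkest in Smart-seq / C1 A, at 2.71 CPM, and Mcm7 is bright in both CEL-seq2 libraries, at 904 and 978 CPM. Read counts grow with transcript length, so colours compare libraries within a row and not genes.

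Read counts grow with the length of a transcript, so levels of different genes in full-length libraries are compared only per kilobase. In the 4 full-length libraries (mean ± SD, n = 4), the large and small subunit genes of ribonucleotide reductase, the enzyme that makes deoxynucleotides, reached 96.8 ± 39.9 (Rrm1) and 325 ± 145 (Rrm2) CPM per kilobase, and Rrm2 stood at the top of the list. Next came Gmnn, which encodes the licensing inhibitor geminin, at 241 ± 46.6, Mcm3 at 198 ± 15.9, Orc6, a subunit of the origin recognition complex, at 196 ± 86.7 and Mcm5 at 187 ± 32.5 CPM per kilobase. The ranges of 1 SD around neighbours in this order overlapped, so the order of neighbours is not set by these libraries. At the other end were Fen1, the flap endonuclease, at 4.55 ± 3.13, E2f1 at 7.97 ± 2.14, Chaf1a, the large subunit of chromatin assembly factor 1, at 11.8 ± 6.11 and Gins3 at 13.3 ± 1.06 CPM per kilobase. Within MCM2-7, whose subunits assemble in equal numbers, mean levels ran from 116 (Mcm7) to 198 (Mcm3) CPM per kilobase, and within GINS from 13.3 (Gins3) to 122 (Gins4). In the 8 tag libraries, by UMI counts not divided by length (mean ± SD, n = 8), the order was another. Mcm7 ranked 1st of the 43 at 434 ± 317 CPM, Pcna 2nd at 368 ± 103 and Lig1 3rd at 341 ± 84.0. Rrm2 ranked 6th, Gmnn 16th, Orc6 17th and Fen1 28th.

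The first comparison set the 4 full-length libraries against the 8 tag libraries. Replication genes were mostly higher in full-length libraries: 29 of 43 (67.4%) passed as higher and 3 (6.98%) as lower, and 11 did not pass. Among all genes tested 25.6% were higher and 23.2% lower. The median log2 fold change was 0.94 over the 43 genes and 0.21 over all genes. Every full-length library lay above every tag library for 16 of the 43, against 6.39% of all genes, and every one lay below for 2 of them (Pcna and Fen1), against 11.1% of all genes.

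Of the helicase subunits, Mcm2, Mcm3, Mcm4, Mcm5 and Mcm6 were higher in full-length libraries and Mcm7 was not, at -0.07 ± 0.18 (SE), adjusted p = 0.797 by the quasi-likelihood test. Mcm4 had the largest difference of the ring. Its 12 values, replicate A then B, were in CPM 621 and 831 with Smart-seq / C1, 409 and 339.6 with Smart-seq2, 202 and 294 with CEL-seq2, 174 and 166 with MARS-seq, 208 and 147 with SCRB-seq and 129 and 138 with Drop-seq. The lowest full-length library lay above the highest tag library, and the log2 fold change was 1.55 ± 0.19 (SE), adjusted p = 1.68e-06 by the same test. For the other 4 the log2 fold changes were 1.28 (Mcm3), 1.17 (Mcm6), 0.99 (Mcm5) and 0.94 (Mcm2). Mcm3 and Mcm5 also showed no overlap of the sides, and Mcm2 and Mcm6 did overlap. Mcm2 in Smart-seq / C1 (278 and 412 CPM) lay below CEL-seq2 B (582 CPM). Mcm6 in Smart-seq / C1 A (297 CPM) lay below both CEL-seq2 libraries (437 and 395 CPM). Mcm7 was highest in CEL-seq2, and its CPM values were 295 and 332 with Smart-seq / C1, 400.5 and 351 with Smart-seq2, 904 and 978 with CEL-seq2, 288 and 353 with MARS-seq, 255 and 260.0 with SCRB-seq and 179 and 256 with Drop-seq.

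Cdc45 and GINS, which turn the loaded ring into a moving helicase, did not all move one way. Cdc45 had CPM values of 87.1 and 172 with Smart-seq / C1, 107 and 94.1 with Smart-seq2, 45.6 and 52.7 with CEL-seq2, 21.5 and 47.1 with MARS-seq, 32.5 and 28.4 with SCRB-seq and 32.0 and 25.9 with Drop-seq, with no overlap between full-length and tag libraries, and the log2 fold change was 1.70 ± 0.25 (SE), adjusted p = 2.21e-05 in the quasi-likelihood test. Gins1 went the other way, with CPM values of 87.6 and 91.7 with Smart-seq / C1, 69.2 and 66.5 with Smart-seq2, 199.9 and 219.9 with CEL-seq2, 364 and 271 with MARS-seq, 81.9 and 103 with SCRB-seq and 107 and 133 with Drop-seq. Its full-length values overlapped those of SCRB-seq A, the lowest tag library, and the log2 fold change was -1.08 ± 0.20 (SE), adjusted p = 2.00e-04 by the quasi-likelihood test. Gins4 (0.75) and Gins2 (0.51) were higher, and Gins3 gave 0.85 with adjusted p = 0.0508 in the same test.

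**Figure D2:**
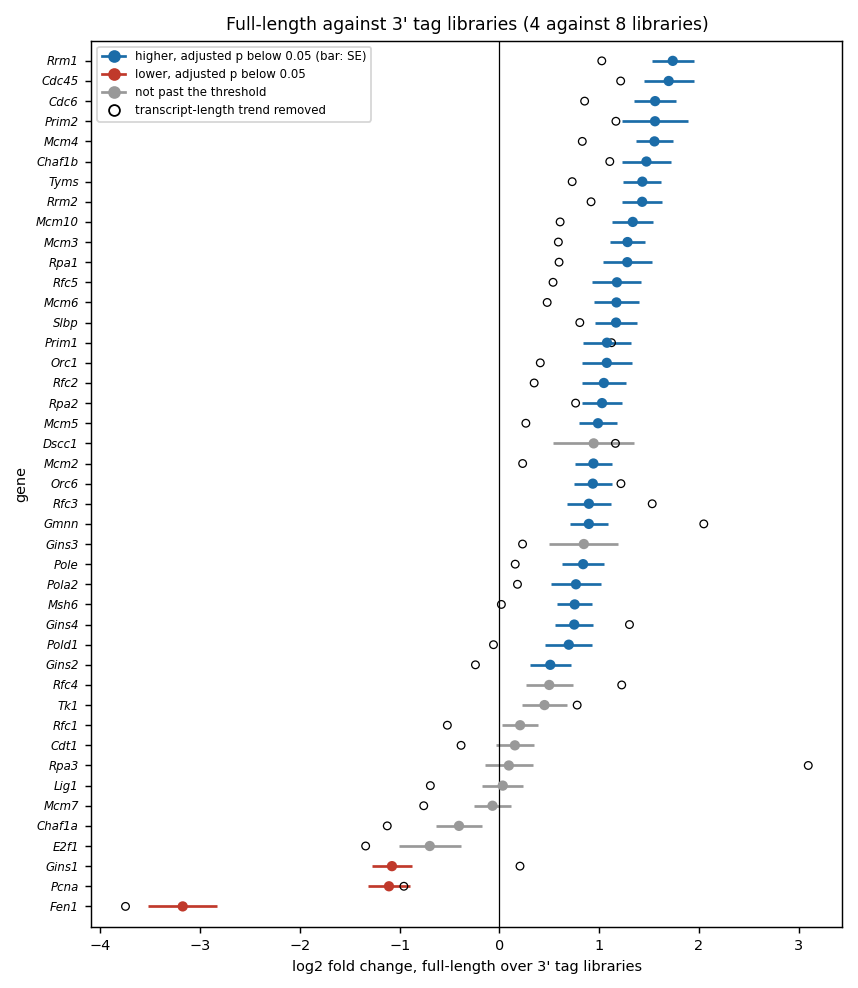
Log2 fold change of full-length over 3′ tag libraries for each of the 43 genes (filled points with SE bars; 4 against 8 libraries), and the same after a trend on transcript length was removed (open circles). Blue points passed as higher (29), red as lower (3) and grey did not pass (11); Rpa3 and Gmnn have open circles far to the right of their points, at 3.09 and 2.05.

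Among licensing and initiation genes, Orc1, Orc6, Cdc6, Gmnn and Mcm10 were higher in full-length libraries. Cdc6, the ATPase that helps load MCM2-7, had CPM values of 127 and 212 with Smart-seq / C1, 134 and 119 with Smart-seq2, 43.9 and 47.0 with CEL-seq2, 34.0 and 35.3 with MARS-seq, 65.0 and 55.4 with SCRB-seq and 59.5 and 69.6 with Drop-seq, and no tag library reached a full-length one (log2 fold change 1.56 ± 0.21 (SE), adjusted p = 6.94e-06, quasi-likelihood test). Mcm10, a factor that helps fire the helicase, gave 1.34, Orc1, the largest subunit of the origin recognition complex, 1.08, Orc6 0.94 and Gmnn 0.90. Cdt1, the partner of Cdc6 in loading, gave 0.15 with adjusted p = 0.536 in the quasi-likelihood test, and its full-length values (118 to 258 CPM) overlapped its tag values (120 to 244 CPM).

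Pcna, the sliding clamp, was lower in full-length libraries. Its CPM values were 154 and 176 with Smart-seq / C1, 184 and 156 with Smart-seq2, 249.7 and 457 with CEL-seq2, 530.1 and 449.7 with MARS-seq, 327 and 264 with SCRB-seq and 285 and 379 with Drop-seq, so that the highest full-length library lay below the lowest tag library, and the log2 fold change was -1.11 ± 0.21 (SE), adjusted p = 2.93e-04 in the quasi-likelihood test. The clamp loader genes Rfc2, Rfc3 and Rfc5 were higher (1.05, 0.90 and 1.18). Rfc1, the large loader subunit, Rfc4, and Dscc1, part of the alternative loader that acts in sister chromatid cohesion, did not pass, at 0.21, 0.50 and 0.94. Dscc1 was the scarcest of these, at 3.58 to 24.8 CPM.

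All 5 polymerase and primase genes passed as higher in full-length libraries, though for Pold1 and Pola2 only Smart-seq2 was high. Smart-seq / C1 gave 59.0 and 26.9 CPM (Pold1) and 39.8 and 48.7 CPM (Pola2), within the range of the tag libraries (23.5 to 99.7 and 22.7 to 88.6 CPM). For Pole only Smart-seq / C1 was high, at 145 and 131 CPM. Its Smart-seq2 values, 75.7 and 60.9 CPM, lay within the tag range of 35.8 to 97.4 CPM. For Prim2 the sides overlapped, with Smart-seq2 A at 63.3 CPM below MARS-seq B at 78.9 CPM. Prim2, the large primase subunit, gave 1.56 ± 0.33 (SE), adjusted p = 6.95e-04 by the quasi-likelihood test, Prim1, the catalytic primase subunit, 1.08, Pole, the catalytic subunit of polymerase epsilon, 0.84, Pola2, the second subunit of polymerase alpha, 0.77 and Pold1, the catalytic subunit of polymerase delta, 0.69. In replication protein A, the single-strand binding complex, Rpa1 (1.28) and Rpa2 (1.03) were higher and the small subunit Rpa3 did not pass (0.09, adjusted p = 0.791 in the quasi-likelihood test).

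Fen1, which trims the flaps of Okazaki fragments, had the largest difference of the 43. Its CPM values were 2.71 and 6.29 with Smart-seq / C1, 17.5 and 16.7 with Smart-seq2, 44.7 and 122 with CEL-seq2, 122 and 95.4 with MARS-seq, 63.2 and 52.1 with SCRB-seq and 61.7 and 87.4 with Drop-seq. All full-length libraries lay below all tag libraries, and the log2 fold change was -3.17 ± 0.35 (SE), adjusted p = 5.05e-07 by the quasi-likelihood test. DNA ligase 1 (Lig1), which seals the same fragments, gave 0.03 with adjusted p = 0.937. Rrm1 had the largest rise, with CPM values of 361 and 619.6 with Smart-seq / C1, 283 and 284 with Smart-seq2, 49.8 and 90.2 with CEL-seq2, 113 and 154 with MARS-seq, 169 and 127 with SCRB-seq and 108 and 115 with Drop-seq, no overlap of the sides and a log2 fold change of 1.74 ± 0.21 (SE), adjusted p = 1.91e-06 by the same test. Rrm2 and Tyms, which encodes thymidylate synthase, gave 1.43 and 1.43. Tk1, the salvage thymidine kinase, did not pass (0.45).

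Chaf1b, the middle subunit of chromatin assembly factor 1, was higher (1.47 ± 0.24 (SE), adjusted p = 6.61e-05 by the quasi-likelihood test), and so was Slbp, which binds the stem-loop of histone mRNAs (1.17). Chaf1a, from the same assembly factor, was not (-0.41, adjusted p = 0.149). E2f1 had CPM values of 14.9 and 19.7 with Smart-seq / C1, 28.2 and 25.1 with Smart-seq2, 62.4 and 55.0 with CEL-seq2, 17.9 and 38.9 with MARS-seq, 23.1 and 25.1 with SCRB-seq and 49.6 and 21.0 with Drop-seq, and its difference of -0.70 missed the threshold (adjusted p = 0.0708, quasi-likelihood test). Msh6, a mismatch repair subunit that travels with the fork, was higher (0.75).

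**Figure D3:**
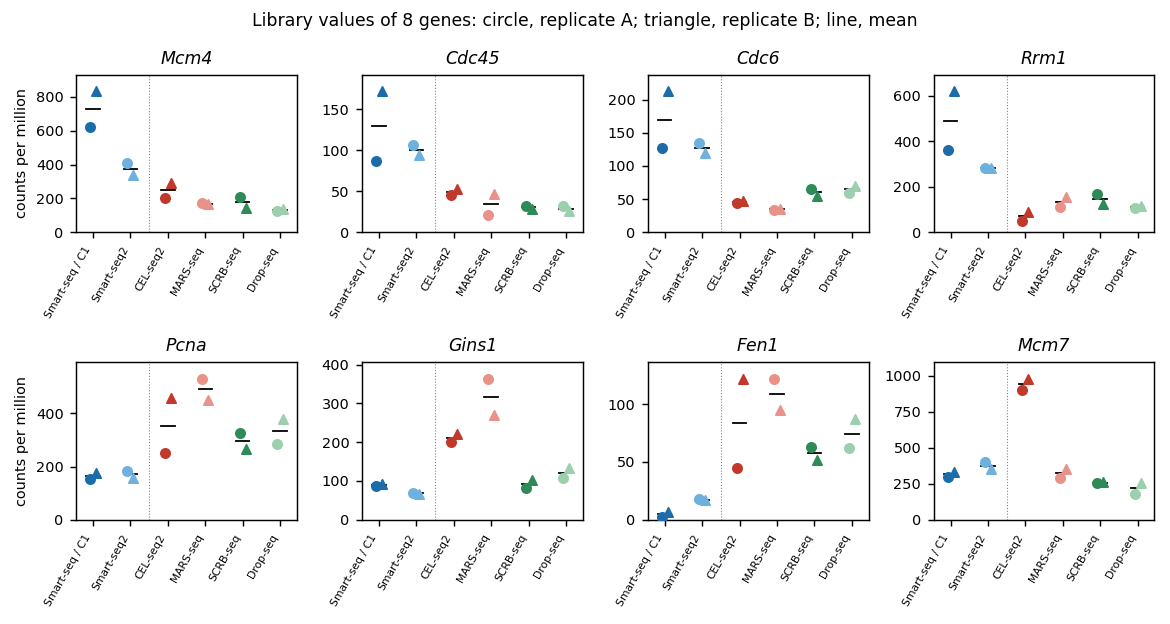
CPM of 8 genes in the 12 libraries, one panel a gene with its own axis from 0; circles are replicate A, triangles replicate B and short lines the mean of both, with the full-length methods left of the dotted line. Mcm4, Cdc45, Cdc6 and Rrm1 have every full-length library above every tag library, Pcna and Fen1 the reverse, and Mcm7 peaks in CEL-seq2 at 904 and 978 CPM.

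Related lists were compared in the same way. Of 70 other replication genes fixed as a list, 32 were higher in full-length libraries and 4 lower, with a median log2 fold change of 0.59. The largest rises were Tfdp1, the partner of E2F proteins (3.99 ± 0.34, SE), and Cdc7, the kinase that fires origins (2.17 ± 0.32), and the largest falls Rrm2b, the p53-induced reductase subunit (-2.61 ± 0.45), and Rnaseh2c, a subunit of ribonuclease H2 (-1.17 ± 0.31). Of 52 genes of G2 and mitosis, 31 were higher and 1 lower, with a median of 0.73. Genes of another phase of the cycle were thus also higher more often than lower, and no test of a difference between the lists was made. Pluripotency markers summed to 7007 to 7507 CPM in full-length libraries and to 3414 to 7361 CPM in tag libraries, and their part in the result was not tested.

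Over all genes, transcript length moved with this comparison, though not evenly. The median log2 fold change was -4.50 for 2711 genes with transcripts of at most 1000 nucleotides, of which 653 were protein-coding with a median of -0.56. It was 0.18 for genes of over 1000 to 2000 nucleotides, 0.61 for 4780 genes of over 2000 to 4000 and 0.48 for those over 4000. Among the 43 genes the medians of these last 3 bins were 0.92, 0.94 and 1.05. Rpa3, the 1 member of at most 1000 nucleotides, gave 0.09. With the trend on length removed, 21 of the 43 genes were higher and 6 lower, against 16.8% and 23.8% of the 14151 genes with a length. Mcm2 (0.23), Mcm5 (0.26), Mcm6 (0.48), Gins2, Orc1, Rfc2, Rfc5, Pola2, Pold1, Pole, Rpa1 and Msh6 (0.02) then no longer passed as higher, while Rfc4, Dscc1, Rpa3 and Tk1 did. Mcm7 (-0.76), Lig1 (-0.69), Chaf1a (-1.12) and E2f1 (-1.34) passed as lower, and Gins1 turned from -1.08 to 0.21. The short genes Rpa3 (3.09) and Gmnn (2.05) came out highest. Pcna (-0.96) and Fen1 (-3.75) remained lower, and Rrm1, Cdc45, Cdc6, Prim2, Mcm4 and Chaf1b remained higher. The trend was fitted over genes of every type, and most of those of at most 1000 nucleotides were not protein-coding. How a trend over protein-coding genes alone would place Rpa3, Gmnn and Gins1 was not tested.

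Overlap with genes on the other strand also moved with it. Exons of opposite-strand genes cover 83.9% of the Fen1 transcript, mostly the antisense gene Gm10143, 70.7% of Gins2 (under Gse1), 48.6% of Chaf1a (under Ubxn6) and at most 19.9% of each of the other 40. Over all genes, the median log2 fold change was -1.96 for 231 genes covered over 50%, with 51.9% of them lower, and 0.17 for 10861 genes with no such cover. Among protein-coding genes alone the medians were -0.895 for 138 genes and 0.49 for 8327, with 44.9% and 10.5% lower. Gins2, covered for 70.7%, passed as higher. Gm10143 itself had 159 counts in Smart-seq / C1 A, where Fen1 had 57, and 116 and 141 in Smart-seq2, where Fen1 had 736 and 594. It had 0 to 17 counts in each tag library, where Fen1 had 53 to 322. Whether counting used strand is not given in the sources used here, and without strand the reads of a gene and its antisense partner cannot be told apart; the part of this overlap in the Fen1 value was not tested. A further 7 genes share at least 10% of their 31-base words with other genes or pseudogenes, so their counts may be split with these copies: Pcna (38.0%, with Pcna-ps2), Mcm7 (37.6%, with Gm5487), Rpa3 (21.3%), Tyms (18.4%), Rfc5 (15.6%), Rrm2 (15.4%) and Cdc6 (10.1%).

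Between the 2 full-length methods, Smart-seq / C1 against Smart-seq2, few replication genes differed. Rfc1, Orc6 and Mcm4 were higher in Smart-seq / C1 (3 of 43, against 8.75% of all genes) and Pold1, Fen1, Pola2, Chaf1a and Mcm2 were lower (5 of 43, against 6.81% of all genes). The median was 0.03 over the 43 genes and 0.11 over all genes. Pold1 showed the largest fall, from 184 and 166 CPM in Smart-seq2 to 59.0 and 26.9 CPM in Smart-seq / C1 (-2.02 ± 0.40 (SE), adjusted p = 0.00224, quasi-likelihood test). Both Smart-seq / C1 libraries lay below both Smart-seq2 libraries. Pola2 fell from 171 and 156 CPM to 39.8 and 48.7 CPM (-1.89 ± 0.42 (SE), adjusted p = 0.00542, quasi-likelihood test), so 2 polymerase genes were lower in Smart-seq / C1 while Prim1, Prim2 and Pole gave 0.70, 0.79 and 1.02 without passing. Rfc1 stood at 400.1 and 342 CPM with Smart-seq / C1, against 159 and 146 CPM with Smart-seq2 (1.28 ± 0.30 (SE), adjusted p = 0.00773, quasi-likelihood test). Orc6 and Mcm4 gave 1.04 and 0.96, and Fen1, Chaf1a and Mcm2 gave -1.93, -1.34 and -0.95. Of these 8, Pold1 alone passed under all 20 alternative settings; without Smart-seq2 A or B no gene was higher and 1 and 2 were lower, and without Smart-seq / C1 A or B 7 and 1 were higher. Of the 70 other replication genes 10 were higher, led by Atad5, which helps unload Pcna (2.01 ± 0.34, SE), and Casp8ap2, a histone mRNA processing factor (1.79 ± 0.35), and 7 lower, led by Chtf8, part of the alternative clamp loader (-3.55 ± 0.49), and Ung, the uracil-DNA glycosylase (-2.72 ± 0.39).

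Among tag methods, in vitro transcription amplifies the cDNA in CEL-seq2 and MARS-seq, and PCR does in SCRB-seq and Drop-seq. In this comparison 9 of the 43 genes were higher with in vitro transcription (20.9%, against 9.14% of all genes) and 2 lower (4.65%, against 12.9% of all genes), with medians of 0.35 and -0.08. The 9 spanned the helicase (Mcm7, Mcm2), GINS (Gins1, Gins2, Gins4), the clamp loader (Rfc4), nucleotide supply (Tk1, Rrm2) and histone mRNA (Slbp). Gins1 rose most, from 106 ± 20.9 (SD, n = 4) to 264 ± 73.0 (SD, n = 4) CPM (1.30 ± 0.23 (SE), adjusted p = 6.26e-04, quasi-likelihood test). Its lowest in vitro transcription library, at 199.9 CPM, lay above its highest PCR library, at 133 CPM. Tk1 reached 94.3 ± 17.8 (SD, n = 4) against 39.6 ± 10.8 (SD, n = 4) CPM, with no overlap (1.28 ± 0.29 (SE), adjusted p = 0.00443, quasi-likelihood test). Slbp, at 157 ± 12.2 (SD, n = 4) against 73.1 ± 29.9 (SD, n = 4) CPM, also showed no overlap (1.16). Mcm7 gave 1.22, Rfc4 1.15, Gins2 1.07, Rrm2 1.04, Mcm2 0.84 and Gins4 0.79. For Gins2 and Mcm2 the sides overlapped. Gins2 in CEL-seq2 (86.1 and 75.1 CPM) lay below SCRB-seq (89.9 and 86.5 CPM), and MARS-seq was high (174 and 119 CPM). Mcm2 in MARS-seq (210 and 245 CPM) was within reach of SCRB-seq (243 and 209 CPM), and CEL-seq2 was high (401 and 582 CPM).

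The lower genes of that comparison were Rfc1 (-1.11 ± 0.22 (SE), adjusted p = 0.00174, quasi-likelihood test) and Chaf1a (-0.85). Rfc1 had CPM values of 154 and 181 with CEL-seq2, 120.0 and 115 with MARS-seq, 259 and 252 with SCRB-seq and 422 and 291 with Drop-seq, all PCR libraries above all in vitro transcription libraries. Chaf1a had CPM values of 40.5 and 59.5 with CEL-seq2, 66.3 and 67.1 with MARS-seq, 87.7 and 55.4 with SCRB-seq and 152 and 152 with Drop-seq. Its call was lost without Smart-seq2 A or B, CEL-seq2 A, MARS-seq A or B, SCRB-seq A, or Drop-seq A or B, each of which left 1 lower gene, and without CEL-seq2 B there were 4. Of the 70 other replication genes 5 were higher, led by the E2F gene E2f2 (2.56 ± 0.87, SE) and Cdk2, an S phase kinase (2.31 ± 0.27), and 12 lower, led by Rrm2b (-2.57 ± 0.52) and Atad5 (-1.93 ± 0.28), with a median of -0.11 against -0.08 over all genes.

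CEL-seq2 exceeded MARS-seq for Mcm7, Pole, Rrm2 and Mcm2 (4 of 43, against 11% of all genes) and fell below it for Pold1 and Tyms (2 of 43, against 12.4% of all genes). Mcm7 stood at 904 and 978 CPM in CEL-seq2 and 288 and 353 CPM in MARS-seq (1.55 ± 0.30 (SE), adjusted p = 0.00132, quasi-likelihood test), the 2 highest values of that gene in any library. Pole gave 1.16, Rrm2 1.14 and Mcm2 1.11. Pold1 fell from 69.8 and 73.0 CPM in MARS-seq to 29.5 and 23.5 CPM in CEL-seq2 (-1.44 ± 0.43 (SE), adjusted p = 0.0205, quasi-likelihood test), and Tyms from 158 and 153 CPM to 48.1 and 77.7 CPM (-1.29). With the trend on transcript length removed, none of the 43 was higher and 8 were lower, and the share of all genes in that fit is not given here. When single libraries were left out instead, there was 1 higher gene without Smart-seq2 A or B, CEL-seq2 B, or MARS-seq A or B, without Smart-seq / C1 A or B there were 6 and 7, and 5 lower in each, without CEL-seq2 A or MARS-seq A none was lower, and without MARS-seq B 1 was. Mcm7 passed as higher in each of these fits with a library left out, and not with the length trend removed. Of the 70 other replication genes 8 were higher, led by Cdc7 (2.78 ± 0.67, SE) and Rbl2, a pocket protein that binds E2F (2.62 ± 0.91), and 3 lower, led by Tfdp1 (-2.66 ± 0.82) and Pole3, an accessory subunit of polymerase epsilon (-1.36 ± 0.40).

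Between Drop-seq and SCRB-seq, both with PCR, none of the 43 genes was higher (against 1.03% of all genes) and Gins2 alone was lower (against 0.483% of all genes). At an unadjusted p below 0.05 in the quasi-likelihood test, 3 of the 43 genes were higher and 10 lower. Of all 14293 genes, 1334 were higher and 1257 lower at that cut. DESeq2's Wald test called 1 of the 43 genes higher. Gins2 stood at 89.9 and 86.5 CPM in SCRB-seq and 25.3 and 35.6 CPM in Drop-seq (-1.55 ± 0.38 (SE), adjusted p = 0.0485, quasi-likelihood test). That call was lost in 13 of 20 alternatives, among them the fit without Drop-seq barcodes within 1 base of another. The test with limma on mean log2(CPM + 1) over cells gave 19 lower genes among the 43, and the share of all genes lower in that test is not given here. Median counts a cell were 18886 and 16192.5 in Drop-seq and 53232 and 48366 in SCRB-seq, and their part in that count was not tested.

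**Figure D4:**
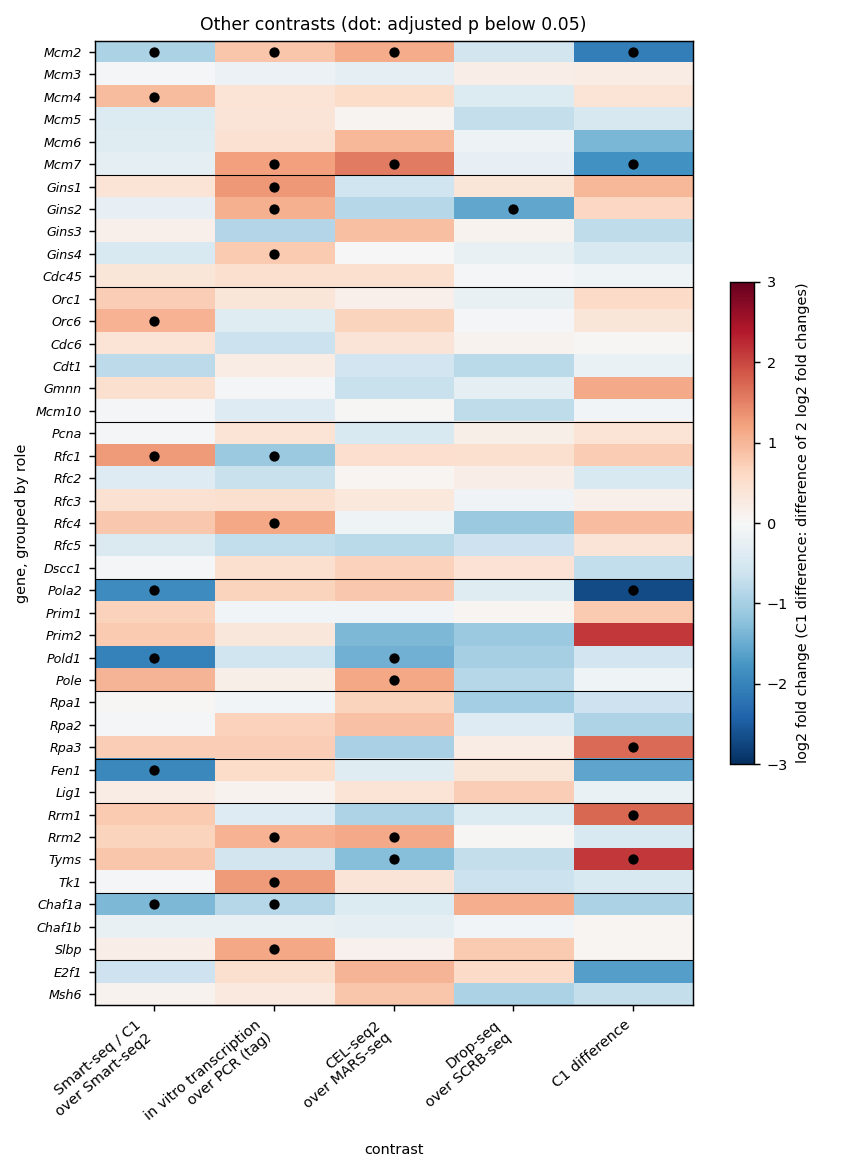
Log2 fold change of the 43 genes (rows, grouped by role) in the contrasts other than full-length against tag; red is higher and blue lower in the method named first, and a dot marks an adjusted p below 0.05. Dots are scattered over roles, with 8, 11, 6 and 1 in the first 4 columns and 6 in the last, the difference of the 2 C1 contrasts.

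Smart-seq / C1 and CEL-seq2 were both run on the C1, and Smart-seq2 and MARS-seq were not, so the difference of these contrasts asks whether a C1 method and its partner differ alike in both kinds of chemistry. Tyms, Rrm1 and Rpa3 gave a positive difference (3 of 43, against 8.58% of all genes) and Pola2, Mcm2 and Mcm7 a negative one (3 of 43, against 7.13% of all genes). Tyms was 0.83 in Smart-seq / C1 over Smart-seq2 and -1.29 in CEL-seq2 over MARS-seq, a difference of 2.12 ± 0.47 (SE), adjusted p = 0.00518 in the quasi-likelihood test. Pola2 was -1.89 and 0.80 in the same contrasts, a difference of -2.68 ± 0.61 (SE), adjusted p = 0.006 in the quasi-likelihood test. Mcm2 differed by -2.07, Mcm7 by -1.81, Rrm1 by 1.71 and Rpa3 by 1.70, the last with adjusted p = 0.0448 and lost in 14 of 20 alternatives. With the length trend removed, Pola2, Mcm2 and Mcm7 lost their calls and 7 genes were higher, with none lower. Limma on means over cells gave 0 higher genes, so that Tyms, Rrm1 and Rpa3 lost their calls, and 18 lower. Shares of all genes in these 2 settings are not given here. Without Smart-seq / C1 B, Smart-seq2 A or B, CEL-seq2 A or MARS-seq B 1 gene was higher, without Smart-seq / C1 A 5 were, and without Smart-seq / C1 B 5 were lower. Rrm1 lost its call in each of the 5 fits that left 1 higher gene, and Mcm7 lost its call without Smart-seq2 A.

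Replicates of a method were not equally close. In Smart-seq2 the median absolute log2 difference of B and A over the 43 genes was 0.12 and none differed over 2-fold. In Smart-seq / C1 it was 0.57, 33 of the 43 genes were higher in B, and 6 differed over 2-fold, most of all Mcm6 (297 and 700.4 CPM), with Rrm2 at 565 and 1188 CPM. Over the 5569 genes whose mean log2 CPM was 5 or more, the same values were 0.13 in Smart-seq2 and 0.55 in Smart-seq / C1, and 58.3% of genes were higher in Smart-seq / C1 B. The largest difference of any method was Dscc1 in MARS-seq, at 3.58 and 15.3 CPM. In the comparison of full-length against tag libraries, 32 of the 43 genes were higher without Smart-seq / C1 A and 30 without Smart-seq / C1 B, beside 29 with both.

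Single cells were compared after each was thinned to 10000 counts. At that depth the median gene of the 43 was seen in 48.3% (MARS-seq A) to 81.3% (Smart-seq2 A) of a library's cells, against 72.4% to 100% in unthinned cells. All cells were of 1 line, so no cell type lacking these genes was there to give a background share. The thinned sum of all 43 genes varied between cells of a library, from 54 to 148 counts in Smart-seq2 A and from 31 to 64 in Drop-seq A. Its variance over its mean ran from 0.845 in SCRB-seq A to 6.37 in CEL-seq2 A.

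Variation among cells was then measured for single genes. The measure was the log2 squared coefficient of variation above a trend on the mean, in thinned cells, with each library giving 1 value per gene. Of the 43 genes 36 could be tested and none passed in limma as more variable (against 2.13% of the 2535 genes tested) or as less variable (against 2.37%). The lowest adjusted p was 0.105, and 3 passed an unadjusted p below 0.05, against 17.6% of all genes. The 5 most variable were Rrm2 (0.28 ± 0.11, SE, above the trend in 10 of 12 libraries), Cdc6 (0.28 ± 0.10, 9 of 12), Rpa2 (0.17 ± 0.12), Chaf1a (0.15 ± 0.10) and Gins4 (0.13 ± 0.10). The 5 least variable were Rfc5 (-0.24 ± 0.10, above the trend in 3 of 12 libraries), Cdt1 (-0.18 ± 0.10), Orc6 (-0.18 ± 0.10), Pcna (-0.16 ± 0.10) and Gins1 (-0.15 ± 0.09). Only with genes of at least 1 thinned count in every library, or without CEL-seq2 B, did 1 gene pass as more variable.

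At 10000 counts a cell, Spearman correlations between genes across the cells of a library were weak, with library medians from -0.0801 to 0.164 for pairs within a complex among the 19 genes abundant enough. In an analysis added after these values were seen, cells of full-length libraries were thinned to 100000 reads, which left 36 of the 43 genes with a mean of at least 5 reads in each library. Pairs of MCM2-7 subunits then had median correlations of 0.033 and 0.170 for Smart-seq / C1 (A and B) and 0.235 and 0.360 for Smart-seq2. All 15 pairs were positive in 3 of these 4 libraries. Pairs of the 36 genes outside a shared complex had medians of 0.029, 0.043, 0.093 and 0.187 in the same order, and pairs of any genes past the filter 0.008, 0.010, 0.004 and 0.021. Cells of a library share its handling and depth, so these correlations describe each library and carry no p-value.

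Values by complex are descriptions from few pairs. The median over pairs of the mean correlation over the 4 full-length libraries was 0.170 for MCM2-7 (15 pairs, 11 of them positive in all 4 libraries), 0.087 for GINS (3 pairs), 0.095 for replication protein A (3 pairs) and 0.006 for the clamp loader (10 pairs). Ribonucleotide reductase, Rrm1 with Rrm2, gave 0.177. The highest pair was Mcm3 with Mcm6 at a mean of 0.367 (0.116 to 0.551 over libraries), followed by genes of different roles: Slbp with Rrm2 at 0.356, Rpa2 with Rrm2 at 0.354, Pcna with Rrm2 at 0.343, Mcm4 with Rrm2 at 0.338 and Mcm4 with Slbp at 0.334. Those 5 pairs across roles, picked by their mean over these same libraries, were positive in all 4 of them. Of all 630 pairs, 184 were positive in all 4 libraries. Cdc45 with Prim1 gave 0.299. The lowest pair was Rfc5 with Orc6 at -0.174, and 64 of 630 pairs had a mean above 0.2. In CEL-seq2 and SCRB-seq cells thinned to 28000 UMIs, MCM2-7 gave 0.149 and the clamp loader 0.052 (6 pairs). Replication protein A gave -0.014 and GINS -0.024 there, and Rrm1 with Rrm2 0.208. At the shallower thinning of all libraries, the median was 0.058 for MCM2-7 (15 pairs). With 1 pair each, replication protein A gave 0.031, GINS 0.0005 and the clamp loader -0.049. MCM2-7 was above these in each setting, and the clamp loader led them only at 28000 UMIs. Rrm1 with Rrm2, a single pair, was above MCM2-7 in both deeper settings. Abundance differed too: mean levels in full-length libraries were 345 to 632 CPM for MCM2-7 and 78.7 to 165 for Gins1, Gins2 and Gins4. They were 133 to 262 CPM for Rfc1 to Rfc5 and 69.7 to 408 for replication protein A. The part of abundance in these correlations was not tested.

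Genes of G2 and mitosis were set against the 36 as well. A replication gene and a G2 or mitosis gene had median correlations of 0.0003 and -0.012 for Smart-seq / C1 and -0.076 and -0.020 for Smart-seq2, where pairs of G2 and mitosis genes among themselves had 0.191 in both libraries. Summed over genes, the replication genes and the G2 and mitosis genes of a cell correlated at -0.16, -0.4, -0.354 and -0.265 in Smart-seq / C1 A and B and Smart-seq2 A and B. At 10000 counts a cell the same values were 0.052, -0.234, -0.163 and -0.072, so 1 sign differed, and the deeper setting was chosen after seeing the data. The MCM2-7 sum correlated with the sum of the other replication genes at 0.254, 0.412, 0.465 and 0.758 in the same order. In CEL-seq2 and SCRB-seq, thinned to 28000 UMIs, the MCM2-7 medians were 0.341 and 0.165 and 0.024 and 0.114, and the summed correlation with G2 and mitosis genes had no common sign (0.42, -0.138, -0.02 and 0.15, against 0.282, -0.268, -0.127 and -0.403 at 10000 counts).

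**Figure D5:**
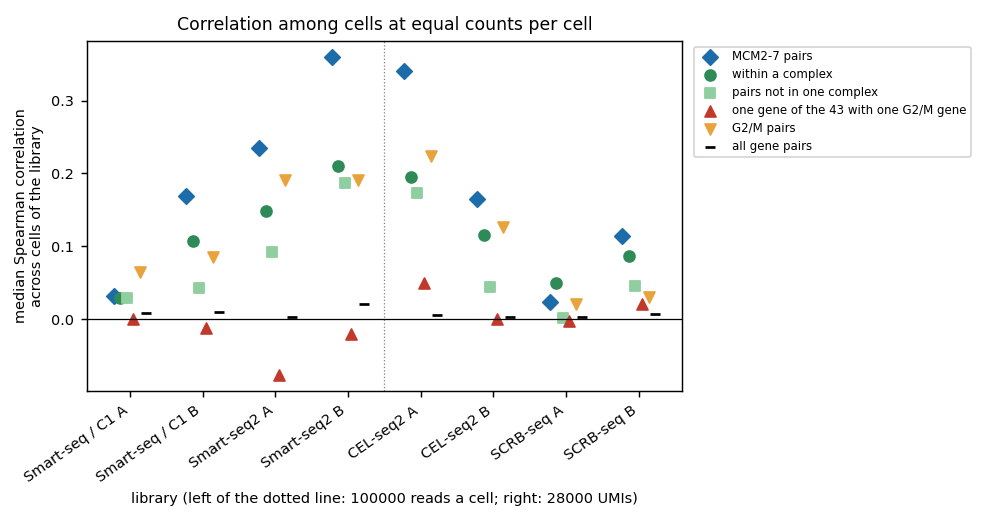
Median Spearman correlation across the cells of a library, for pairs of MCM2-7 genes, pairs within a complex, pairs not in one complex, a replication gene with a G2 or mitosis gene, G2 and mitosis pairs, and all gene pairs; cells were thinned to 100000 reads (left of the dotted line) or 28000 UMIs (right). MCM2-7 pairs lie at 0.235 and 0.360 in Smart-seq2 and at 0.341 in CEL-seq2 A, and close to the other groups in Smart-seq / C1 A, at 0.033.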

How the data were processed

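RNA of single J1 cells was measured with 6 methods, 2 libraries each. The authors deposited 1 table of raw counts per gene and cell. Per the submitters' processing notes, reads were mapped with STAR 2.4.0 to mm10, and UMIs were counted per gene and cell for the 4 tag methods; how Smart-seq reads were counted, with what annotation and whether by strand is not given in the sources used here. The deposited counts of 38924 mouse genes were summed over the cells of a library (583302 to 34984056 counts), and 92 spike-ins were left out. Symbols came from GENCODE M21, which held 37607 of the identifiers (96.62%). Library depth sets counting error, and its part in the differences between methods was not tested.

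Contrasts were fitted in edgeR 4.0.16 (R 4.3.3) with TMM scaling, 1 mean per method over all 12 libraries, a robust quasi-likelihood test of 14293 genes past filterByExpr, and Benjamini-Hochberg adjustment over all of them; an adjusted p below 0.05 was called. CPM values of libraries use TMM-scaled totals, except the sums of cell type markers, which use plain library totals. Alternatives used DESeq2 1.42.0 size factors and its Wald test, limma 3.58.1 on log2(CPM + 1) averaged over cells, every gene with at least 1 count, cells thinned to 10000 counts, a trend on transcript length removed, a replicate block, Drop-seq without barcodes 1 base from another, and each library left out. Variation among cells was tested with limma, and correlations were computed with Python 3.11 and NumPy 2.4.6. Doublets were not called; 12 cells held over 2 times their library's median count. The steps were tested on simulated data. Every member is named; values in full were given for at most the 6 largest rises and 6 largest falls per contrast, the 5 most and 5 least variable members, and, in the list of other replication genes, the 2 largest of each direction. The members and lists were chosen with earlier results of these data known.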

Additional observations from a re-analysis of the deposited data

Results flagged for a closer look

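The difference between the contrast of Smart-seq / C1 with Smart-seq2 and that of CEL-seq2 with MARS-seq passed the quasi-likelihood test for 6 of the 43 genes, 3 in each direction, against 8.58% of all genes with a positive and 7.13% with a negative difference, so the share is near that of all genes. On the log2 scale it was 2.12 for Tyms, 1.71 for Rrm1 and 1.70 for Rpa3, and -2.68 for Pola2, -2.07 for Mcm2 and -1.81 for Mcm7. What these differences come from was not tested.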

How the results depend on the processing

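For the 6 largest rises and the 3 falls between full-length and tag libraries, 179 of 180 values over 20 alternatives kept direction and call, while other members lost calls with the length trend removed, as the report lists; Gins1 turned to 0.21 with the length trend removed, and in CEL-seq2 against MARS-seq Pole turned to -0.0181. The cause of the changes below was not tested. With the length trend removed, counts of higher and lower genes moved to 6 lower for full-length against tag, 6 and 3 for Smart-seq / C1 against Smart-seq2, 1 lower for in vitro transcription against PCR, 0 and 8 for CEL-seq2 against MARS-seq, 0 lower for Drop-seq against SCRB-seq, and 7 and 0 for the C1 difference. DESeq2's Wald test gave 5 lower for full-length against tag, 5 higher for Smart-seq / C1, 7 lower for CEL-seq2, 1 higher for Drop-seq and 6 higher for the C1 difference. DESeq2 size factors gave 2 higher and 5 lower for CEL-seq2 and 0 lower for Drop-seq. Limma on mean log2(CPM + 1) gave 0 higher for Smart-seq / C1, 4 lower for in vitro transcription, 18 higher and 0 lower for CEL-seq2, 19 lower for Drop-seq, and 0 higher and 18 lower for the C1 difference. Thinned cells gave 1 higher for Smart-seq / C1, 2 higher for CEL-seq2 and 2 lower for Drop-seq, and every gene with at least 1 count gave 1 higher for Smart-seq / C1. Without near barcodes 0 were lower in Drop-seq. For variation among cells, genes of at least 1 count gave 1 more variable member.

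Leaving out each library, which leaves its method with 1 library assumed to vary like the others, gave 28 to 33 higher and 3 to 4 lower genes for full-length against tag, 0 to 7 and 1 to 5 for Smart-seq / C1, 6 to 11 and 1 to 4 for in vitro transcription, 1 to 7 and 0 to 5 for CEL-seq2, 0 to 0 and 0 to 2 for Drop-seq, and 1 to 5 and 2 to 5 for the C1 difference. More variable members numbered 0 to 1 and less variable ones 0 to 0, and mean correlations ran from 0.0444 to 0.0667 within a complex, 0.0277 to 0.04 between complexes and 0.0059 to 0.01 with genes of G2 and mitosis.

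The labels do not say whether the letters A and B pair libraries across methods. The correlations of B minus A between methods ran from -0.0839 to 0.0781 over 15 pairs of methods, 0 of them over 0.1. Such values cannot show that the letters are unpaired, since the spread between replicates could hide a small shared effect. With a replicate block, 0 genes were lower in Drop-seq against SCRB-seq. Correlations within a complex rose to 0.164, and between complexes to 0.0906, with Pearson's r on unthinned cells, and at 100000 reads a cell, chosen after seeing the data, they were 0.0879 between complexes and -0.0268 with genes of G2 and mitosis. Counting error is larger in the tag libraries, whose summed counts are lower.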
